A study of Gallus gallus with 8 samples.

Results

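Genes for matrix-degrading metalloproteases and their inhibitors were compared between engineered chick muscle tissues after 3 weeks and after 1 week of differentiation. They were taken as every gene of the count table whose symbol begins with *MMP*, *TIMP*, *ADAM*, or *ADAMTS* followed by a digit, or with *ADAMTSL*. This gave 47 of 17775 genes, of which 13 were *MMP*, 3 *TIMP*, 11 *ADAM*, 17 *ADAMTS*, and 3 *ADAMTSL* genes. Bulk RNAseq had been performed on 3 tissues lysed on day 21 (week 3, tissues 3-1 to 3-3) and 5 tissues lysed on day 7 (week 1, tissues 1-1 to 1-5). Both groups were grown from primary thigh myoblasts of E10 chick embryos on micromolded gelatin hydrogels crosslinked with transglutaminase, were differentiated in low-serum medium, and held no motor neurons. No gene was altered and no drug was given in either group, so the weeks differed in culture time alone as far as the labels state. The labels call the tissues replicates without naming the embryos, harvest, or sequencing batch. An effect of harvest or batch cannot be told apart from that of the week. The p-values set the difference between weeks against the spread of these 8 tissues within their weeks. Whether that spread is one between harvests is not known.

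Matrix metalloproteinases (MMPs) are zinc-dependent enzymes that cut collagens, gelatin, and other matrix proteins outside the cell. Tissue inhibitors of metalloproteinases (TIMPs) bind their active sites. ADAMs sit in the cell membrane, where several of them release growth factors, adhesion molecules, and Notch ligands from the cell surface. ADAMTS proteases are secreted, carry thrombospondin repeats, and cut proteoglycans and procollagens, and ADAMTS-like proteins have the repeats but no protease domain. In muscle, these families are known for remodeling of the basement membrane and for roles in myoblast migration and fusion. The culture substrate here, gelatin, is denatured collagen, which the gelatinases MMP2 and MMP9 are named for cutting.

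Total estimated counts per tissue were 15447904 to 18902561 at week 3 and 14368710 to 16545497 at week 1. Levels are given as FPKM-UQ, the authors' normalized value per gene. In this table it holds no gene length, so values were compared between tissues for 1 gene and not between genes. The muscle label was checked on *DES*, the muscle intermediate filament gene, at 4364 to 4546 FPKM-UQ at week 3 and 3932 to 4649 FPKM-UQ at week 1. The myogenic regulator *MYOD1* was at 184 to 195 FPKM-UQ at week 3, below its 234 to 328 FPKM-UQ at week 1. These values show that muscle genes were expressed, not that the muscle part was the same in both weeks. Tissue 1-1 stood apart from the other week 1 tissues. It was the lowest or highest tissue of week 1 for 35 of 45 protease and inhibitor genes (77.8%), and for 66.5% of all genes tested. Its part in each result was measured by leaving it out. The RNA was extracted from whole tissues, in which fewer cells of a type and less RNA per cell cannot be told apart.

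Of the 47 genes, 45 had enough counts to be tested. The exceptions were *ADAM11*, with 0 to 6 counts per tissue at week 3 and 2 to 8 at week 1, and *ADAM20*, with 1 to 6 counts at week 3 and 2 to 4 at week 1. By edgeR's quasi-likelihood test, with Benjamini-Hochberg adjusted p-values over 14311 genes, 22 of the 45 genes (48.9%) had an adjusted p below 0.05, and 23.5% of all genes tested did. Of these, 10 genes were higher at week 3, as were 11.5% of all genes tested, and 12 were lower, as were 12.0% of all genes tested. At an unadjusted p below 0.05 with a fold change above 1.5, 20 of the 45 genes were counted (14.6% of all genes tested), with 10 of them higher (7.22% of all genes tested) and 10 lower (7.39% of all genes tested). The weeks did not overlap in FPKM-UQ for 23 of the 45 genes (51.1%), against 29.9% of all genes tested. The median log2 fold change of the 45 genes was -0.20, and that of all genes tested was -0.0065. The median size of the change, without its sign, was 0.56 on the log2 scale for the 45 genes and 0.22 for all genes tested.

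By family, 4 *MMP* genes were higher and 4 lower of 13 tested. Of 3 *TIMP* genes, 2 were higher and the other did not pass the test. Of 9 tested *ADAM* genes, 1 was higher and 1 lower. Of 17 *ADAMTS* genes, 2 were higher and 7 lower, and of 3 *ADAMTSL* genes, 1 was higher and the others did not pass. Without tissue 1-1, 31 of the 45 genes (68.9%) had an adjusted p below 0.05, among 38.6% of all genes tested. All 22 genes were among these 31, of which 11 were higher and 20 lower. The share of all genes in each direction was not computed without 1-1, so this split has no background beside it. With all tissues, the shares to set beside each family are 11.5% higher and 12.0% lower.

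**Figure D1:**
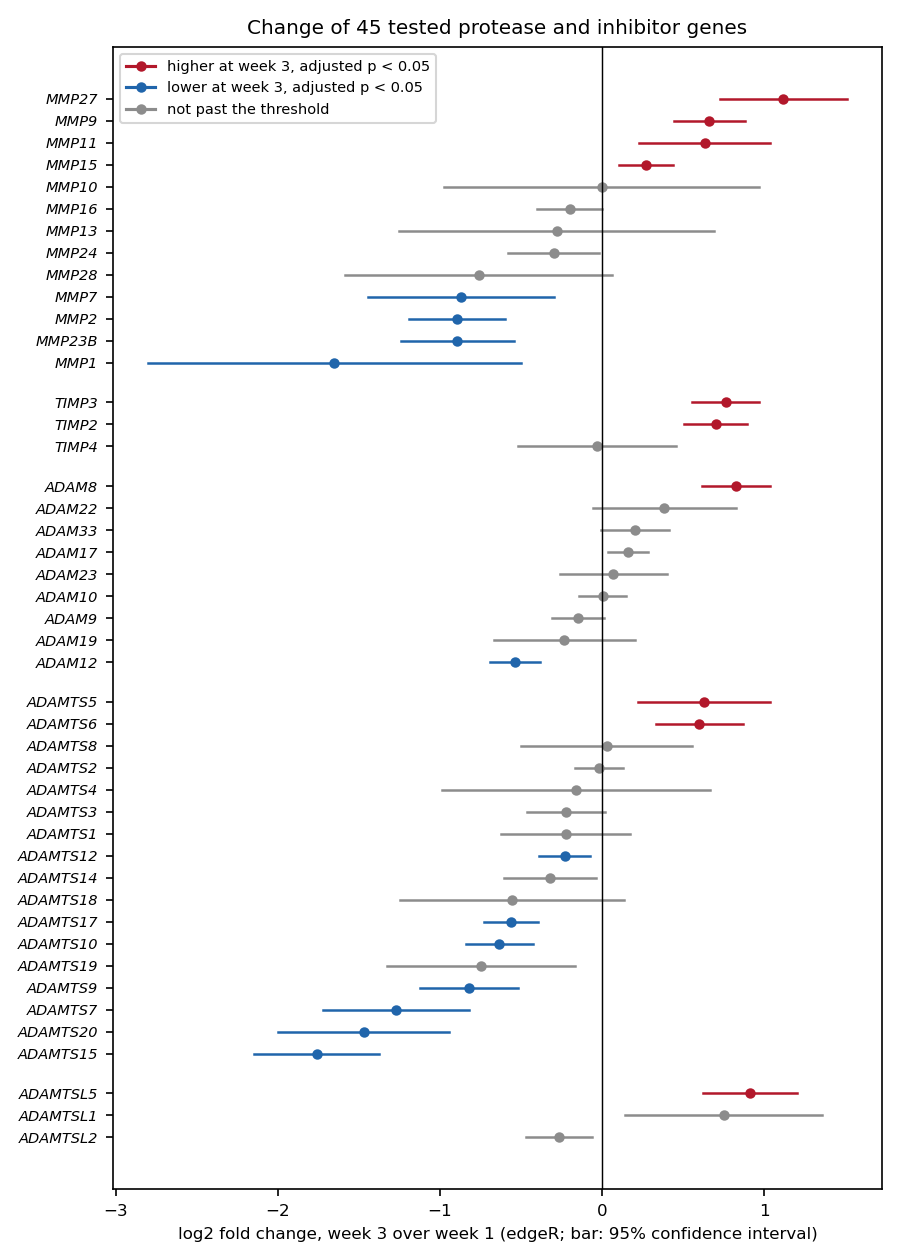
Log2 fold change at week 3 over week 1 for the 45 tested genes, grouped by family, with the 95% confidence interval of edgeR's quasi-likelihood test as bars and colour for genes past an adjusted p of 0.05. The points run between -1.76 (*ADAMTS15*) and 1.12 (*MMP27*), with 10 coloured genes to the right of 0 and 12 to the left.

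The gelatinases moved in opposite directions. *MMP2* (gelatinase A, chromosome 11, 3706912 to 3741658) was at 660, 656, and 637 FPKM-UQ in the week 3 tissues, against 825, 1192, 1351, 1333, and 1280 FPKM-UQ in the week 1 tissues. Every week 3 tissue lay below every week 1 tissue, and tissue 1-1 was the lowest of week 1. *MMP2* was thus 1.86-fold lower at week 3 (log2 fold change -0.89, SE 0.14, adjusted p = 6.9e-04). *MMP9* (gelatinase B, chromosome 20, 10572557 to 10576666) was at 77.8, 78.8, and 78.5 FPKM-UQ in the week 3 tissues, against 61.5, 46.2, 46.4, 45.8, and 45.2 FPKM-UQ in the week 1 tissues. The week 3 values were again apart from those of week 1, with 1-1 the week 1 tissue nearest to them. *MMP9* was 1.58-fold higher at week 3 (log2 fold change 0.66, SE 0.10, adjusted p = 6.7e-04). Without tissue 1-1 the log2 fold changes were -0.998 for *MMP2* and 0.76 for *MMP9*.

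*TIMP2* and *TIMP3* were both higher at week 3. *TIMP2*, whose product inhibits MMPs and also takes part in the activation of pro-MMP2 at the cell surface, was at 2238, 2166, and 2214 FPKM-UQ in the week 3 tissues, against 1122, 1283, 1394, 1382, and 1535 FPKM-UQ in the week 1 tissues. The change was 1.63-fold (log2 fold change 0.70, SE 0.09, adjusted p = 1.9e-04). *TIMP3*, the inhibitor that binds to the matrix and also blocks ADAM17 and ADAMTS proteases, was at 924, 896, and 901 FPKM-UQ in the week 3 tissues, against 421, 538, 527, 608, and 552 FPKM-UQ in the week 1 tissues. This was a 1.70-fold change (log2 fold change 0.76, SE 0.10, adjusted p = 1.8e-04). For both inhibitors the lowest week 3 tissue lay above the highest week 1 tissue, and 1-1 was the lowest of all. *TIMP3* lies inside *SYN3* on the opposite strand, and *SYN3* averaged 14.8 counts per tissue beside 10866 for *TIMP3*. *TIMP4* did not pass the test. It was at 15.9, 14.6, and 15.7 FPKM-UQ in the week 3 tissues, against 7.78, 17.7, 16.5, 19.9, and 16.1 FPKM-UQ in the week 1 tissues (log2 fold change -0.03, 95% confidence interval -0.52 to 0.46, adjusted p = 0.95).

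Inhibitor and gelatinase genes were also set beside each other as ratios of counts within a tissue. These were chosen after the values were seen and were not tested. Counts depend on gene length, so only the change of a ratio between weeks can be read, not its size. *TIMP2* over *MMP2* was 3.30 to 3.47 at week 3 and 1.03 to 1.36 at week 1. *TIMP3* over *MMP2* was 1.37 to 1.41 at week 3 and 0.390 to 0.510 at week 1, and *MMP9* over *MMP2* was 0.118 to 0.123 at week 3 and 0.0343 to 0.0744 at week 1. For each ratio the weeks did not overlap. This was bound to follow, since *MMP2* was lower and the other genes higher in every week 3 tissue, so it adds no evidence. All 47 genes together took 0.539% to 0.552% of the counts at week 3 and 0.402% to 0.486% at week 1. *TIMP* genes took 0.315% to 0.326% at week 3 and 0.161% to 0.206% at week 1. *MMP* genes took 0.117% to 0.124% at week 3 and 0.132% to 0.179% at week 1. These shares largely restate single genes. In tissue 3-1, *TIMP2* had 43396 counts and *TIMP3* 17925, beside 308 for *TIMP4*, and *MMP2* had the most counts of the *MMP* genes (12796). *MMP14*, not matched by symbol, is not in the *MMP* share, and neither are *MMP3*, *MMP17*, and *MMP23A*, which RefSeq lists.

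**Figure D2:**
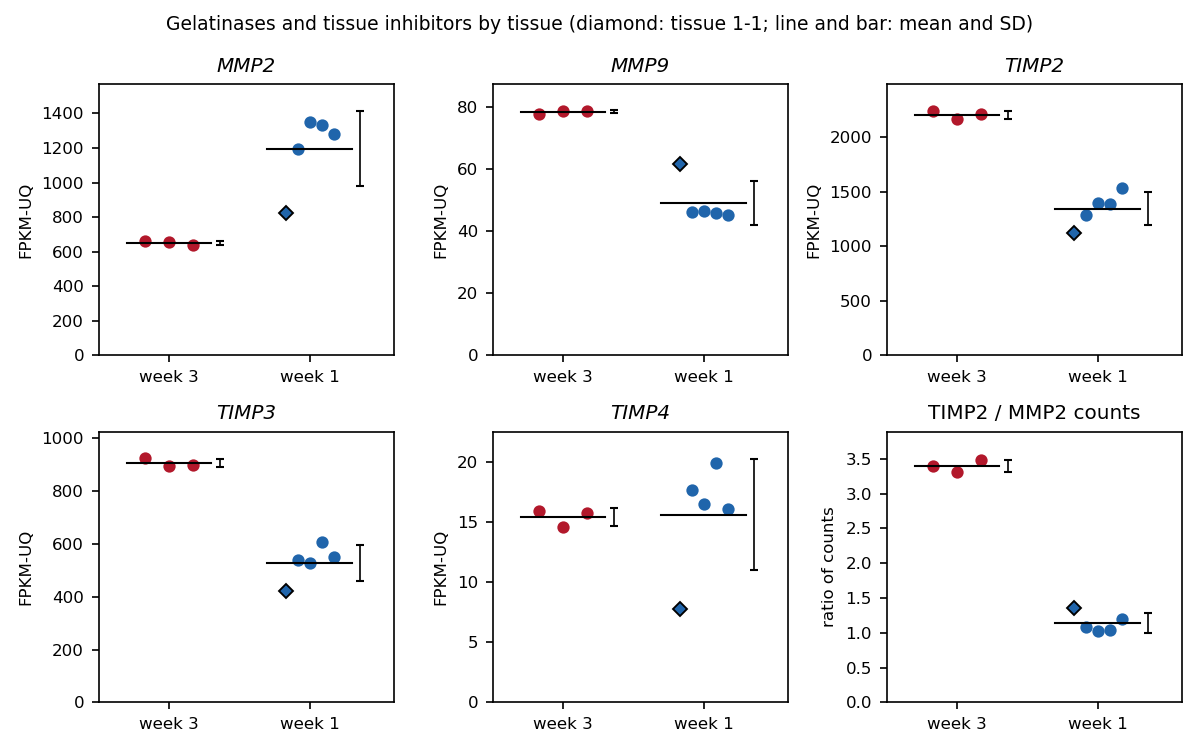
FPKM-UQ per tissue of the gelatinase and TIMP genes, with week 3 (3 tissues) left of week 1 (5 tissues), the mean as a line, the SD as a bar, and tissue 1-1 as a diamond. *MMP2* lay at 637 to 660 at week 3, below all week 1 tissues, while *MMP9*, *TIMP2*, and *TIMP3* lay above all week 1 tissues.

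Among the remaining MMPs, *MMP27* showed the largest rise. Its product is a little-studied MMP that is kept inside the secretory pathway in human cells. It was at 33.7, 30.5, and 27.7 FPKM-UQ in the week 3 tissues, against 8.43, 12.8, 17.4, 16.1, and 15.2 FPKM-UQ in the week 1 tissues, with no overlap (log2 fold change 1.12, SE 0.18, adjusted p = 9.6e-04). *MMP11*, stromelysin-3, was at 30.7, 27.6, and 27.8 FPKM-UQ in the week 3 tissues, against 27.7, 16.2, 13.5, 16.9, and 17.4 FPKM-UQ in the week 1 tissues. Tissue 1-1 lay within the week 3 values and the other week 1 tissues lay below them (log2 fold change 0.63, SE 0.18, adjusted p = 0.027). *MMP11* and *SMARCB1* share 135 bp on the same strand. *MMP15*, a membrane-bound MMP, was at 313, 294, and 285 FPKM-UQ in the week 3 tissues, against 266, 253, 223, 226, and 250 FPKM-UQ in the week 1 tissues (log2 fold change 0.27, SE 0.08, adjusted p = 0.023). Leaving out 1-1 gave *MMP11* an adjusted p of 2.9e-07, and leaving out any other tissue gave 0.057 to 0.11. That of *MMP15* was lost without 3-1, 3-2, 3-3, 1-3, or 1-4 (adjusted p of 0.0506 to 0.121).

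*MMP23B*, *MMP1*, and *MMP7* fell together with *MMP2*. *MMP23B*, a type II membrane protein that is released by cleavage, was at 25.0, 24.1, and 24.5 FPKM-UQ in the week 3 tissues, against 29.7, 41.9, 49.9, 49.7, and 54.1 FPKM-UQ in the week 1 tissues (log2 fold change -0.89, SE 0.16, adjusted p = 0.0020). *MMP1*, the interstitial collagenase, had few reads, with 17, 4, and 3 counts in the week 3 tissues and 12, 18, 37, 23, and 17 counts in the week 1 tissues. Tissue 3-1 overlapped week 1 in *MMP1* (log2 fold change -1.65, SE 0.53, adjusted p = 0.041). Without 3-1 the log2 fold change of *MMP1* was -2.70, and without 3-2, 3-3, 1-2, 1-3, 1-4, or 1-5 it did not pass the test (adjusted p of 0.058 to 0.16). *MMP7*, matrilysin, was at 1.44, 1.71, and 1.42 FPKM-UQ in the week 3 tissues, against 2.16, 2.55, 2.79, 3.75, and 2.35 FPKM-UQ in the week 1 tissues. Its weeks did not overlap (log2 fold change -0.87, SE 0.26, adjusted p = 0.032), but it did not pass the test without 3-1, 3-2, 3-3, 1-2, 1-3, or 1-4 (adjusted p of 0.0503 to 0.113).

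The remaining *MMP* genes, *MMP10*, *MMP13*, *MMP16*, *MMP24*, and *MMP28*, did not pass the test with all tissues. *MMP13*, collagenase-3, was at 17.7, 16.1, and 15.9 FPKM-UQ in the week 3 tissues, against 3.01, 21.1, 29.2, 21.7, and 24.6 FPKM-UQ in the week 1 tissues (log2 fold change -0.28, SE 0.44, adjusted p = 0.70). Tissue 1-1 lay below week 3 and the other week 1 tissues above it, and without 1-1 *MMP13* was lower at week 3 (log2 fold change -0.56, adjusted p = 2.9e-04). *MMP10*, stromelysin-2, was at 9.61 to 11.7 FPKM-UQ at week 3 and 1.83 to 17.1 FPKM-UQ at week 1, again with 1-1 lowest (adjusted p = 1.00, 95% confidence interval of the log2 fold change -0.97 to 0.97). *MMP16*, a membrane-bound MMP, was at 25.1 to 25.9 FPKM-UQ at week 3 and 25.3 to 33.4 FPKM-UQ at week 1 (log2 fold change -0.20, adjusted p = 0.14), and it passed the test without 1-1 (-0.24, adjusted p = 0.023). *MMP24* had a log2 fold change of -0.30 (adjusted p = 0.12) and *MMP28* of -0.76 (adjusted p = 0.17). *MMP24* overlaps *EIF6* and *MAP1LC3A*, which averaged 2264 and 2593 counts beside 158 for *MMP24*, and whether reads were counted by strand is not stated. *MMP14*, the membrane-bound MMP best known for activating pro-MMP2, was not matched by symbol and is not analysed here.

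*MMP13*, *MMP10*, *MMP1*, *MMP27*, and *MMP7* lie in this order on the plus strand of chromosome 1, between 183730975 and 183877710 (galGal6, GRCg6a), where the count table places 1 other gene, between *MMP27* and *MMP7*. The gap between *MMP1* and *MMP27* is 4305 bp, and *MMP1* fell while *MMP27* rose. *MMP1* had only 17, 4, and 3 counts in the week 3 tissues, and its weeks overlapped, so its ratios rest on few reads. *MMP27* over *MMP1* counts was 38.4 to 156 at week 3 and 7.76 to 12.5 at week 1. *MMP27* over *MMP13* counts overlapped between the weeks, at 1.74 to 1.90 at week 3 and 0.597 to 2.84 at week 1, with the highest value in tissue 1-1. A pair of *ADAMTS* genes on chromosome 24 lie 7355 bp apart on opposite strands. There, *ADAMTS15* fell, and *ADAMTS8* did not pass the test. *ADAMTS8* over *ADAMTS15* counts was 1.99 to 2.16 at week 3 and 0.393 to 1.10 at week 1. On chromosome 1, 33654 bp separate *ADAMTS1* from *ADAMTS5*, and *ADAMTS5* over *ADAMTS1* counts was 0.389 to 0.467 at week 3 and 0.151 to 0.471 at week 1, an overlap made by tissue 1-1. The ratios were chosen after the values were seen and were not tested, and only their change between weeks can be read.

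**Figure D3:**
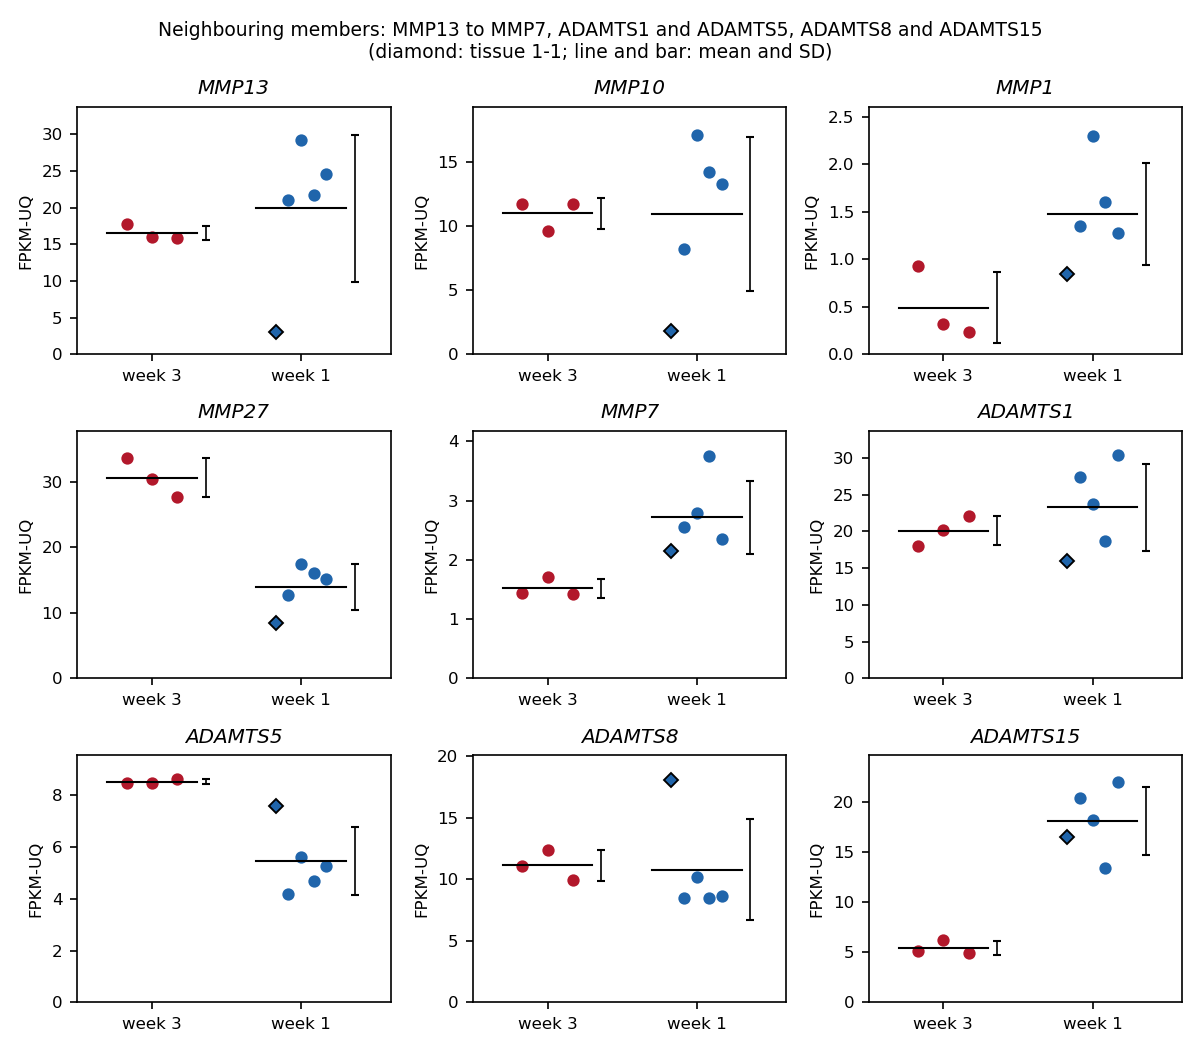
FPKM-UQ per tissue of genes that neighbour each other, the *MMP* group of chromosome 1 and the *ADAMTS* pairs of chromosomes 1 and 24, with week 3 (3 tissues) left of week 1 (5 tissues), the mean as a line, the SD as a bar, and tissue 1-1 as a diamond. *MMP27* lay higher at week 3. *MMP1*, next to it, had few reads and a lower mean at week 3, with tissue 3-1 inside the week 1 range. Tissue 1-1 was the lowest tissue for *MMP13* (3.01) and *MMP10* (1.83).

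Among the ADAMs, *ADAM8* rose and *ADAM12* fell. *ADAM8*, a sheddase known mostly from leukocytes, was at 61.5, 64.2, and 60.5 FPKM-UQ in the week 3 tissues, against 39.7, 29.2, 32.9, 37.9, and 33.4 FPKM-UQ in the week 1 tissues (log2 fold change 0.83, SE 0.09, adjusted p = 9.8e-05). *ADAM12*, meltrin alpha, which is known from myoblast fusion and muscle regeneration in mice, was at 59.8, 61.0, and 58.3 FPKM-UQ in the week 3 tissues, against 78.5, 85.4, 82.5, 87.1, and 94.7 FPKM-UQ in the week 1 tissues (log2 fold change -0.54, SE 0.07, adjusted p = 2.8e-04). For both genes the weeks were fully separate. *ADAM10* and *ADAM17*, the main sheddases of Notch receptors and of TNF and EGF receptor ligands, did not pass the test. *ADAM10* was at 109 to 112 FPKM-UQ at week 3 and 105 to 121 FPKM-UQ at week 1 (log2 fold change 0.0048, 95% confidence interval -0.14 to 0.15, adjusted p = 0.97). *ADAM17* was at 95.3, 102, and 99.7 FPKM-UQ in the week 3 tissues, against 86.8, 89.3, 86.7, 86.8, and 88.2 FPKM-UQ in the week 1 tissues. Its weeks did not overlap, but the difference was small (log2 fold change 0.16, SE 0.06, adjusted p = 0.060). It passed without 1-1 (0.020), with upper-quartile factors (0.043), and in limma on log2(FPKM-UQ + 1) (0.044). It did not pass with DESeq2 (0.058), no filter (0.095), at least 10 counts (0.061), or the replicate block (0.24). Leaving out any tissue other than 1-1 gave *ADAM17* an adjusted p of 0.079 to 0.22. The exact two-sided permutation test gave p = 0.0357 for *ADAM17*, the smallest value that 3 against 5 tissues allow. Every gene whose weeks do not overlap gets this value, so it adds nothing to the separation of the weeks. *ADAM9* was at 88.4 to 96.1 FPKM-UQ at week 3 and 88.7 to 106 FPKM-UQ at week 1 (log2 fold change -0.15, adjusted p = 0.17, and 0.0075 without 1-1). *ADAM19*, meltrin beta, had a log2 fold change of -0.23 (adjusted p = 0.44), and *ADAM23*, which lacks protease activity and overlaps an unnamed gene on the same strand, of 0.07 (adjusted p = 0.78). *ADAM22*, also without protease activity, and *ADAM33* had log2 fold changes of 0.38 (adjusted p = 0.19) and 0.21 (adjusted p = 0.15), with every week 3 tissue above every week 1 tissue for both.

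The *ADAMTS* family held the gene that fell most. *ADAMTS15*, *ADAMTS20*, and *ADAMTS9* belong to 7 genes whose products cut hyalectans such as versican and aggrecan. They were the 3 of the 7 that fell, beside 12.0% of all genes tested and 7 of all 17 *ADAMTS* genes. Without tissue 1-1, 4 of the 7 were lower, while 38.6% of all genes tested passed in either direction. *ADAMTS15*, which is known to cut versican in mouse muscle, was at 5.16, 6.26, and 4.90 FPKM-UQ in the week 3 tissues, against 16.5, 20.4, 18.2, 13.4, and 22.0 FPKM-UQ in the week 1 tissues. It was 3.38-fold lower at week 3 (log2 fold change -1.76, SE 0.18, adjusted p = 3.8e-05). *ADAMTS20* was at 14.5, 11.8, and 16.2 FPKM-UQ in the week 3 tissues, against 59.8, 41.0, 25.3, 32.7, and 35.3 FPKM-UQ in the week 1 tissues, where 1-1 was highest (log2 fold change -1.47, SE 0.24, adjusted p = 0.0011). *ADAMTS9* was at 8.61, 8.98, and 8.50 FPKM-UQ in the week 3 tissues, against 19.0, 14.4, 13.3, 15.6, and 13.6 FPKM-UQ in the week 1 tissues (log2 fold change -0.82, SE 0.14, adjusted p = 0.0014). The weeks were separate for each of these genes.

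*ADAMTS5*, an aggrecanase that also cuts versican, was the 1 gene of the 7 that rose, beside 11.5% of all genes tested. It was at 8.46, 8.47, and 8.62 FPKM-UQ in the week 3 tissues, against 7.58, 4.18, 5.63, 4.68, and 5.26 FPKM-UQ in the week 1 tissues (log2 fold change 0.63, SE 0.19, adjusted p = 0.029). Leaving out 1-1 gave an adjusted p of 4.0e-04, and leaving out any other tissue gave 0.056 to 0.092. *ADAMTS1*, *ADAMTS4*, and *ADAMTS8* did not pass the test. *ADAMTS1* was at 18.0 to 22.1 FPKM-UQ at week 3 and 16.0 to 30.4 FPKM-UQ at week 1 (log2 fold change -0.22, adjusted p = 0.42, and -0.33 with 0.037 without 1-1). *ADAMTS8* was at 11.1, 12.4, and 9.92 FPKM-UQ in the week 3 tissues, against 18.0, 8.51, 10.2, 8.50, and 8.68 FPKM-UQ in the week 1 tissues, so that 1-1 lay above week 3 and most other week 1 tissues below it (log2 fold change 0.03, adjusted p = 0.95). *ADAMTS4*, another aggrecanase, was at 1.18 to 1.77 FPKM-UQ at week 3 and 0.87 to 2.56 FPKM-UQ at week 1, and it did not pass the test (95% confidence interval of the log2 fold change -0.99 to 0.67, adjusted p = 0.81).

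*ADAMTS7* and *ADAMTS12*, whose products cut cartilage oligomeric matrix protein, both fell. *ADAMTS7* was at 8.92, 12.6, and 9.80 FPKM-UQ in the week 3 tissues, against 14.9, 25.0, 26.8, 27.3, and 30.2 FPKM-UQ in the week 1 tissues (log2 fold change -1.27, SE 0.21, adjusted p = 0.0011). *ADAMTS12* was at 86.9 to 94.9 FPKM-UQ at week 3 and 92.2 to 110 FPKM-UQ at week 1, with 1-1 inside the week 3 range (log2 fold change -0.23, SE 0.07, adjusted p = 0.040). *ADAMTS12* did not pass the test when any tissue other than 1-1 was left out (adjusted p of 0.071 to 0.17), and without 1-1 its adjusted p was 3.3e-04. It also did not pass with upper-quartile factors (0.052) or in limma on log2(FPKM-UQ + 1) (0.055). The paralogs *ADAMTS6* and *ADAMTS10*, which act on fibrillin microfibrils, moved in opposite directions. *ADAMTS6* was at 17.3, 15.7, and 17.2 FPKM-UQ in the week 3 tissues, against 9.55, 10.8, 9.57, 13.2, and 11.6 FPKM-UQ in the week 1 tissues (log2 fold change 0.60, SE 0.12, adjusted p = 0.0044). *ADAMTS10* was at 15.2, 14.0, and 13.2 FPKM-UQ in the week 3 tissues, against 21.6, 20.1, 22.2, 23.2, and 21.4 FPKM-UQ in the week 1 tissues (log2 fold change -0.63, SE 0.09, adjusted p = 6.0e-04). Neither gene's weeks overlapped.

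The procollagen N-proteinases, which remove the amino-terminal propeptide of fibrillar procollagens, did not pass the test. *ADAMTS2* was at 97.3 to 101 FPKM-UQ at week 3 and 88.2 to 105 FPKM-UQ at week 1 (log2 fold change -0.02, 95% confidence interval -0.16 to 0.13, adjusted p = 0.89). *ADAMTS3* (-0.22, adjusted p = 0.17) and *ADAMTS14* (-0.32, adjusted p = 0.10) were lower at week 3 without 1-1, with adjusted p of 0.0049 and 0.0013. Of the other *ADAMTS* genes, *ADAMTS17* was at 25.4, 28.8, and 29.4 FPKM-UQ in the week 3 tissues, against 39.9, 39.3, 39.9, 40.8, and 42.9 FPKM-UQ in the week 1 tissues (log2 fold change -0.56, SE 0.08, adjusted p = 3.5e-04). *ADAMTS18* (-0.56, adjusted p = 0.23) and *ADAMTS19* (-0.74, adjusted p = 0.063) did not pass, and *ADAMTS19* passed without 1-1 (0.045) or 1-4 (0.024). *ADAMTS* genes together took 0.0386% to 0.0401% of the counts at week 3 and 0.0467% to 0.0498% at week 1.

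**Figure D4:**
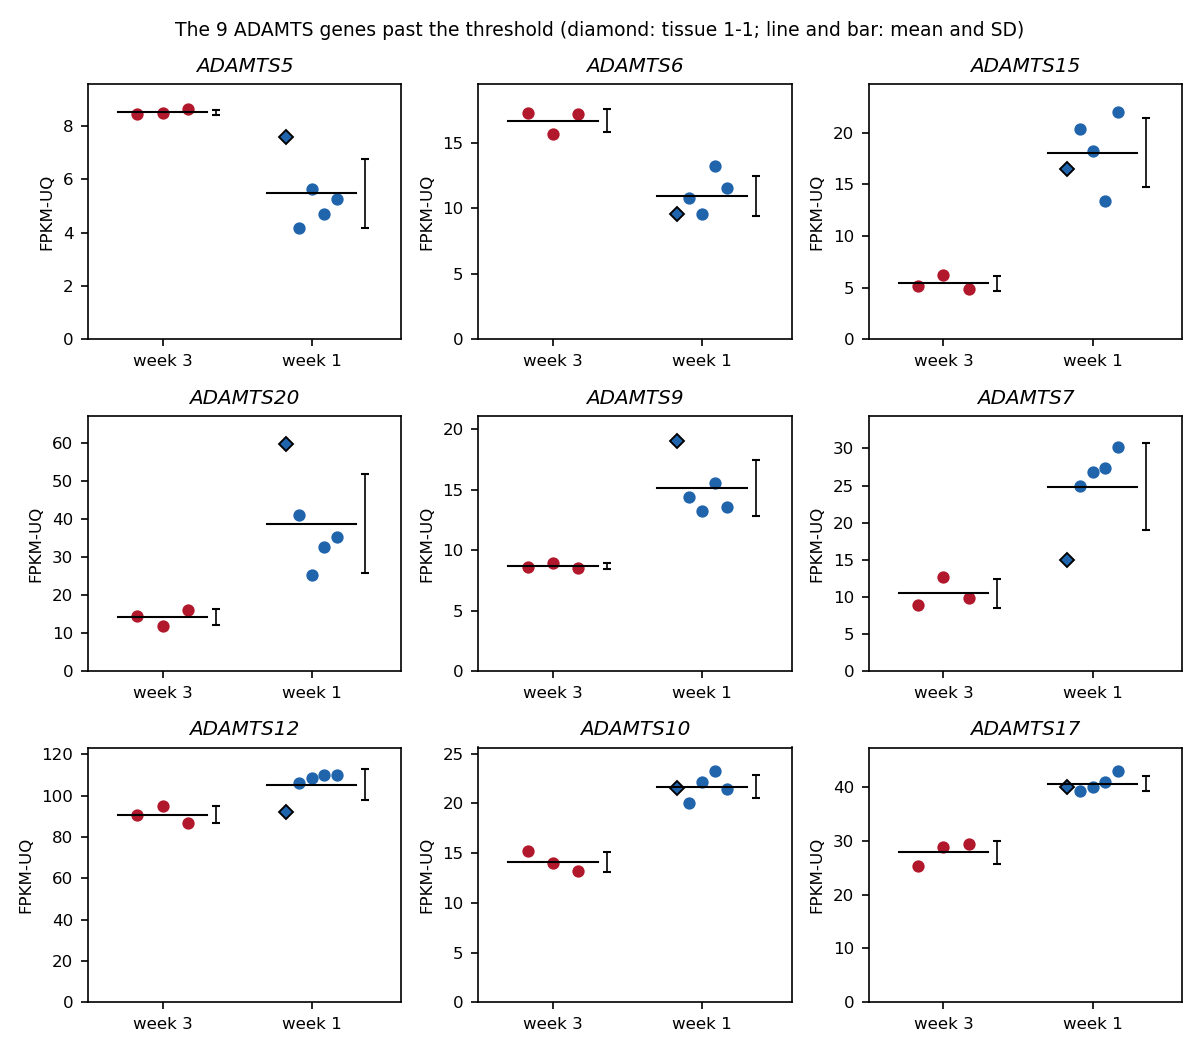
FPKM-UQ per tissue of the 9 *ADAMTS* genes with an adjusted p below 0.05, with week 3 (3 tissues) left of week 1 (5 tissues), the mean as a line, the SD as a bar, and tissue 1-1 as a diamond. *ADAMTS5* and *ADAMTS6* lay higher at week 3 and the other 7 lower, with *ADAMTS15* at 4.90 to 6.26 at week 3 and 13.4 to 22.0 at week 1.

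*ADAMTSL5*, an ADAMTS-like protein that binds fibrillin, was at 27.4, 26.4, and 22.9 FPKM-UQ in the week 3 tissues, against 15.2, 12.1, 12.7, 11.0, and 16.4 FPKM-UQ in the week 1 tissues. It was 1.88-fold higher at week 3, with no overlap (log2 fold change 0.91, SE 0.13, adjusted p = 5.3e-04). *ADAMTSL1* was at 2.53, 3.48, and 2.07 FPKM-UQ in the week 3 tissues, against 1.24, 1.63, 2.18, 1.40, and 1.57 FPKM-UQ in the week 1 tissues (log2 fold change 0.75, SE 0.28, adjusted p = 0.073). *ADAMTSL2*, which binds the latent TGF-β complex, was at 81.7 to 87.1 FPKM-UQ at week 3 and 88.5 to 120 FPKM-UQ at week 1. Its weeks did not overlap (log2 fold change -0.26, SE 0.09, adjusted p = 0.060), and it passed the test without 1-1 (0.00575) or 1-5 (0.034). *ADAMTSL3* was not matched by symbol and is not analysed here. The same holds for other genes of these families that RefSeq lists, such as *ADAM15*, *ADAM32*, and *ADAMTS13*.

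**Figure D5:**
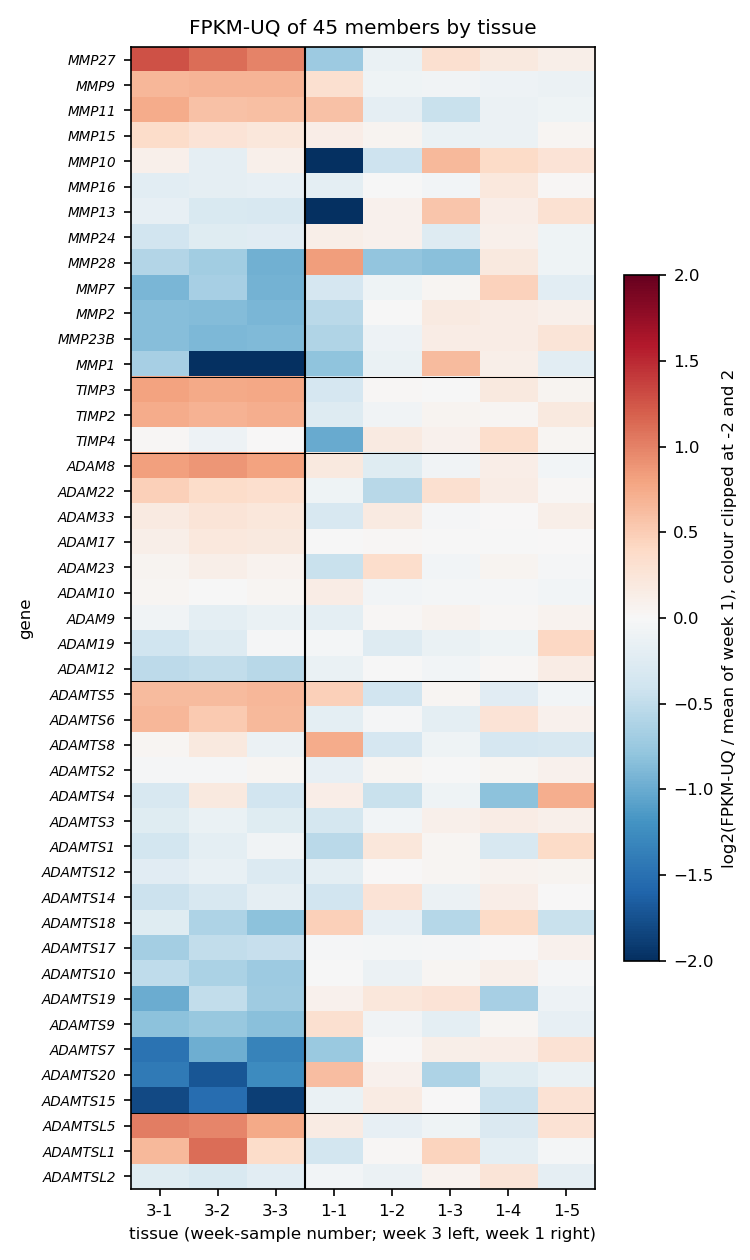
Level of each of the 45 genes in each tissue as log2 of its FPKM-UQ over its mean at week 1, with the 3 week 3 tissues left of the 5 week 1 tissues, genes grouped by family, and colour clipped at -2 and 2. The week 3 columns resemble each other, and the 1-1 column differs from its week 1 neighbours, for example for *MMP10*, *MMP13*, and *TIMP4* (blue) and for *ADAMTS8* and *MMP11* (red).

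Other genes of extracellular proteolysis were counted from lists, as were the cell type markers below. Some genes, such as *CTSS*, *COL2A1*, and *ACAN*, are counted in a list of each kind, so the counts are not independent of each other. Beside each list stand the shares of all genes tested, 11.5% higher and 12.0% lower. Of 6 tested genes of plasminogen activation, which acts upstream of several MMPs, 1 was higher and 1 lower (median log2 fold change 0.20). The lower gene was *PLAU*, urokinase, at 3.92, 6.76, and 4.37 FPKM-UQ in the week 3 tissues, against 10.1, 6.95, 7.02, 10.3, and 6.83 FPKM-UQ in the week 1 tissues (log2 fold change -0.74, adjusted p = 0.034). The call of *PLAU* was lost without 3-1, 3-3, or 1-4 (adjusted p of 0.078 to 0.15). Of 18 regulators of MMPs and ADAMs, 2 were higher and 3 lower (median -0.05). The higher ones were *LRP2*, an endocytic receptor (log2 fold change 0.71, adjusted p = 0.017), and *ITGB3*, the beta 3 integrin (0.66, adjusted p = 0.0495). The call of *LRP2* was lost without 3-2 or 3-3 (0.052 to 0.090), and that of *ITGB3* without 3-1, 3-2, 3-3, 1-3, 1-4, or 1-5 (0.068 to 0.17) and in limma on log2(FPKM-UQ + 0.1) (0.054). The lower ones were *LRP1*, *TFPI2*, and *RECK*. *LRP1*, another endocytic receptor, was at 835 to 884 FPKM-UQ at week 3 and 815 to 1353 FPKM-UQ at week 1 (log2 fold change -0.48, adjusted p = 0.022). Its lowest value was in tissue 1-1. *TFPI2* was at 117 to 118 FPKM-UQ at week 3 and 137 to 212 FPKM-UQ at week 1 (log2 fold change -0.43, adjusted p = 0.037). *RECK*, a membrane-anchored MMP inhibitor, was at 24.5, 26.9, and 26.2 FPKM-UQ in the week 3 tissues, against 27.7, 33.7, 31.5, 33.0, and 29.6 FPKM-UQ in the week 1 tissues (log2 fold change -0.28, adjusted p = 0.035), and its call was lost without 3-1, 3-2, 3-3, 1-2, 1-3, or 1-4 (0.069 to 0.14) and in limma on log2(FPKM-UQ + 1) (0.053).

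Of 13 other matrix-processing proteases and their enhancers, 4 were higher and 4 lower (median -0.12). *HTRA1*, a secreted serine protease, was at 166, 165, and 166 FPKM-UQ in the week 3 tissues, against 328, 414, 427, 401, and 437 FPKM-UQ in the week 1 tissues (log2 fold change -1.29, adjusted p = 3.9e-06). *CTSS*, cathepsin S of antigen-presenting cells, fell (-1.12, adjusted p = 0.0066), while *PAPPA2*, which cuts IGF-binding proteins, rose (1.11, adjusted p = 0.023), as did the procollagen C-proteinase gene *TLL1* (0.97, adjusted p = 0.012). The call of *PAPPA2* was lost when any week 3 tissue was left out (0.054 to 0.10) and with DESeq2 on all tissues (0.065). *PAPPA*, also in this list, fell (-0.79, adjusted p = 0.025), with weeks that overlapped.

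Of 12 genes listed as substrates of ADAMTS proteases, 3 were higher and 5 lower (median -0.22). The list holds link proteins, thrombospondin 1, and von Willebrand factor beside proteoglycans and collagens. All 5 lower genes were proteoglycan or collagen genes, and of the 3 higher ones only *NCAN* was. *VCAN*, versican, was at 273, 279, and 262 FPKM-UQ in the week 3 tissues, against 236, 458, 449, 471, and 464 FPKM-UQ in the week 1 tissues (log2 fold change -0.63, adjusted p = 0.027). Tissue 1-1 lay below week 3. Without 1-1 the log2 fold change of *VCAN* was -0.77, and its call was lost when any other tissue was left out (0.058 to 0.10). *ACAN*, aggrecan, fell by 0.94 on the log2 scale (adjusted p = 0.015), a call lost without 3-1 or 3-2 (0.064 to 0.071), and *COL2A1*, cartilage collagen, had a log2 fold change of -1.63 (adjusted p = 9.4e-04). *HAPLN1*, the link protein that holds hyalectans to hyaluronan, rose (2.13, adjusted p = 0.0014). So did *THBS1*, thrombospondin 1 (1.32, adjusted p = 7.1e-06), and *NCAN*, neurocan (0.99, adjusted p = 0.029), whose call was lost without 3-1, 3-2, 3-3, 1-2, or 1-3 (0.056 to 0.11). Of 13 substrates of ADAM sheddases, 3 were higher and 4 lower (median -0.23). *DLL1*, a Notch ligand (0.87, adjusted p = 0.026), and *HBEGF*, an EGF receptor ligand (0.84, adjusted p = 0.0034), rose, and *CX3CL1*, fractalkine, fell (-0.59, adjusted p = 0.018). The call of *DLL1* was lost without 3-1, 3-2, 3-3, 1-2, 1-3, or 1-5 (0.056 to 0.10) and that of *CX3CL1* without any week 3 tissue (0.067 to 0.073).

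*MMP9* and *ADAM8* are also expressed by leukocytes, so markers of these cells are set beside them. At week 3, 10 of 11 macrophage and leukocyte markers fell (median log2 fold change -2.44). Their summed FPKM-UQ was 65.5 to 68.4 at week 3 and 149 to 254 at week 1, with 1-1 lowest, and all 11 had counts in every tissue. *C1QA*, a complement gene of macrophages, was at 1.65, 1.58, and 1.30 FPKM-UQ in the week 3 tissues, against 13.1, 14.9, 20.1, 16.8, and 21.1 FPKM-UQ in the week 1 tissues. Which cells expressed *MMP9* and *ADAM8* was not tested. *PTPRC*, the leukocyte antigen CD45 and the marker that did not pass the test, was at 6.89 to 8.15 FPKM-UQ at week 3 and 5.55 to 8.36 FPKM-UQ at week 1. Of 2 tested osteoclast genes, 1 was lower.

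Markers of other cell types that the tissues could hold were counted in the same way. Of 9 fibroblast markers, 2 were higher and 4 lower, and their sum was 23084 to 23755 FPKM-UQ at week 3 and 20491 to 31723 FPKM-UQ at week 1, with 1-1 lowest. *COL1A1* and *COL1A2* made most of this sum. Without 1-1, 3 of the 9 were higher and 6 lower, while 38.6% of all genes tested passed in either direction. Fibroblasts are a known source of *MMP2*, *TIMP2*, and *TIMP3*. Of 6 smooth muscle and pericyte markers, 2 were higher and 1 lower, and their sum was 3214 to 3257 FPKM-UQ at week 3 and 734 to 951 FPKM-UQ at week 1. Most of this sum came from the 2 higher markers, *ACTA2* (mean 2460 at week 3 and 593 at week 1) and *TAGLN* (662 and 115). *PDGFRB* fell (log2 fold change -0.64, adjusted p = 0.0078), and *MYH11*, *CNN1*, and *RGS5* did not pass the test. Of 8 cartilage and tendon markers, 2 were higher and 2 lower, with sums of 94.2 to 95.2 FPKM-UQ at week 3 and 102 to 199 FPKM-UQ at week 1, where 1-1 was highest. Of 8 skeletal muscle markers 2 were lower, *MYOD1* (log2 fold change -0.51, adjusted p = 0.0039) and *ACTA1* (-0.84, adjusted p = 0.030). The sum of the muscle list was 13473 to 13867 FPKM-UQ at week 3 and 13998 to 21241 FPKM-UQ at week 1, with 1-1 lowest of week 1. Of 4 endothelial markers 1 was lower, and of 4 epithelial markers 2 were higher. The rest of the muscle, endothelial, and epithelial lists did not pass the test. *TEK*, *DCSTAMP*, *EPCAM*, and *KRT18* were at 0 counts in at least 1 tissue. The part of these cell types in the changes of the protease and inhibitor genes was not tested.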

How the data were processed

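Bulk RNA of 8 chick muscle tissues was used, 3 of week 3 and 5 of week 1, and each tissue was taken as 1 replicate. RNA was extracted with TRIzol and sequenced on an Illumina NovaSeq. The submitters' processing notes name STAR 2.7.3a, Partek, and the builds galGal6 and GRCg6a. For 17775 genes, the values deposited by the authors were unnormalized estimated counts, 81.0% of them whole numbers. For 15394 of these, the authors deposited a normalized signal that they call FPKM-UQ, obtained by adding 1 to each estimated count and dividing by a factor that is the same for all genes of a tissue (15.8 to 19.4 at week 3 and 14.1 to 16.5 at week 1), with no gene length in it. Positions are those of the count table.

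Rounded estimated counts entered edgeR 4.0.16 in R 4.3.3 (TMM, filterByExpr, quasi-likelihood test, week 3 over week 1, Benjamini-Hochberg adjustment over 14311 genes). Tables were handled in Python 3.11.15 with pandas 2.3.3. The SE is the size of the log2 fold change divided by the square root of F. On simulated data (3 tables of 14311 genes, 200 changed 2-fold), 77.3% of changed genes were recovered and 6.07% of calls were false. The simulated tables held no tissue apart from its group as 1-1 was, and fewer changed genes than the 3367 called here. These rates therefore do not measure recovery or false calls in the real data. The rule for named genes took members called with a fold change above 1.5, a set chosen for their roles, the highest member of each family, and members whose weeks did not overlap. The members outside it, such as *MMP10*, *MMP13*, and *ADAMTS8*, were named so that each gene is accounted for, and how much is given on each was chosen after their values were seen. Up to 4 called genes with a fold change above 1.5 were named per pathway list. *RECK*, *VCAN*, and *ACAN* were added after their values were seen. So were *LRP1*, *TFPI2*, and *PAPPA*, which are not among the 62 named genes examined below. List genes were matched by symbol or RefSeq synonym (127 of 144). The members and lists were chosen with earlier results of these data known. Alternatives were DESeq2 1.42.0, upper-quartile factors, no filter, at least 10 counts, limma 3.58.1 on log2(FPKM-UQ + 1), also for genes with a mean of at least 1, or on log2(FPKM-UQ + 0.1), a replicate block, and each tissue left out. A marker list is not reported here.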

Additional observations from a re-analysis of the deposited data

Results flagged for a closer look

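Among 62 named genes, 12 had 1 week 1 tissue far from the other 4 by Dixon's test of 5 values, which chance gives in about 1 of 20 groups. The tissue was 1-1 for 10 of them. Tissue 1-1 lay above the others in *ADAM10* (120.8 FPKM-UQ, others 105.5 to 108.2), *ADAMTS8* (18.04 FPKM-UQ, others 8.496 to 10.17), *MMP11* (27.66 FPKM-UQ, others 13.5 to 17.36), and *MMP9* (61.46 FPKM-UQ, others 45.18 to 46.45). Tissue 1-1 lay below the others in *ADAM9* (88.65 FPKM-UQ, others 102.9 to 106), *ADAMTS12* (92.25 FPKM-UQ, others 106.2 to 110), *ITGB3* (7.911 FPKM-UQ, others 17.36 to 20.36), *CTSS* (18.5 FPKM-UQ, others 42.77 to 47.23), *PAPPA2* (4.25 FPKM-UQ, others 15.39 to 18.36), and *VCAN* (236 FPKM-UQ, others 448.7 to 471.1). Tissue 1-5 lay above the others in *ADAM19* (6.474 FPKM-UQ, others 4.043 to 4.707). Tissue 1-2 lay above the others in *LRP2* (7.519 FPKM-UQ, others 4.511 to 5.336).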

How the results depend on the processing

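Of the 22 genes with an adjusted p below 0.05, 16 kept their direction and their call under all 16 alternatives (*ADAM8*, *ADAM12*, *ADAMTS6*, *ADAMTS7*, *ADAMTS9*, *ADAMTS10*, *ADAMTS15*, *ADAMTS17*, *ADAMTS20*, *ADAMTSL5*, *MMP2*, *MMP9*, *MMP23B*, *MMP27*, *TIMP2*, and *TIMP3*). The others were *ADAMTS5*, *ADAMTS12*, *MMP1*, *MMP7*, *MMP11*, and *MMP15*, and 0 of the 22 changed direction. The number of genes past the threshold was 23 with DESeq2, 22 with upper-quartile factors, other filters, or limma on log2 FPKM-UQ, and 16 to 31 when 1 tissue was left out. With upper-quartile factors and limma, *ADAMTS12* was lost (adjusted p of 0.0517 to 0.0572) and *ADAM17* gained (0.0378 to 0.0474), so 11 genes were higher and 11 lower, and DESeq2 gained *ADAMTS19* (0.0485). With 1 tissue left out, 7 to 11 genes were higher and 9 to 20 lower, with 20 lower without tissue 1-1. The shares of all genes by direction were not computed for these fits. An unadjusted p below 0.05 with a fold change above 1.5 gave 20 genes, beside 14.6% of all genes tested.

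Tissues of the same replicate number did not deviate alike from their week means (correlations of deviations 0.025, -0.010, and 0.0028 over 14311 genes). Correlations near 0 cannot show whether these tissues shared a harvest or batch, which the labels do not name. With the number as a block, which uses tissues 1 to 3 of each week, 17 genes passed. Among genes of the pathway lists, *PLAU*, *LRP2*, *ITGB3*, *RECK*, *TLL1* (adjusted p = 0.0776), *VCAN*, *ACAN*, *NCAN*, *DLL1*, and *CX3CL1* lost their call under the block. *ITGB3* also lost it with at least 10 counts (0.0501), and *ITGB3* (0.0525) and *VCAN* (0.0518) in limma at a mean of at least 1. Genes below the threshold changed sign under the block: *ADAM10* (-0.0196), *ADAMTS2* (0.02), *ADAMTS8* (-0.10), *MMP10* (0.57), *MMP13* (0.20), and *TIMP4* (0.19). *MMP10* had 0.0106 with upper-quartile factors, 0.25 with limma at a pseudocount of 1, and 0.33 at 0.1. In limma, *MMP13* had 0.0206 and 0.0607 and *TIMP4* 0.0419 and 0.0494 at these pseudocounts. With 1 tissue left out, log2 fold changes were -0.0087 to 0.046 for *ADAM10*, -0.0209 to 0.17 for *ADAM23*, -0.0524 to 0.0055 for *ADAMTS2*, -0.37 to 0.10 for *ADAMTS4*, -0.0536 to 0.30 for *ADAMTS8*, -0.28 to 0.22 for *MMP10*, and -0.20 to 0.0734 for *TIMP4*. The cause of these changes was not tested.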
